A study of Capra hircus with 10 samples.

Results

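Of the 1804 miRNA counted in the goat mammary gland, 1265 were predicted from hairpins in the genome and had no name in the tables beyond their chromosome, scaffold or contig. The present description concerns the 177 predicted miRNA whose hairpin had a miRDeep2 score of 10 or more and whose raw counts summed to 20 or more over 10 libraries. They came from 137 hairpins, of which 40 gave both arms and 97 gave 1 arm. The score and the summed counts chose these miRNA, so both are given as descriptions only. Among the hairpins that passed the score, another 173 miRNA summed to fewer than 20 counts, and 265 predicted miRNA with enough counts had a hairpin that scored under 10.

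The tissue was the mammary gland of Alpine goats in peak lactation, on day 48 ± 2 after kidding, all kept on hay of orchard grass with concentrate for 2 weeks. Over the last 48 h before slaughter, 4 Control goats ate this diet ad libitum and 6 FD goats were food deprived, with water free to all. Small RNA was sequenced in 1 library per goat, so each library was a biological replicate. L01, L04, L06 and L10 came from the Control goats and the remaining libraries, from L02 to L09, from the FD goats.

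A miRNA is cut from a hairpin RNA, of which the 5′ arm gives the 5p form and the 3′ arm the 3p form. Bases 2 to 8 of the mature miRNA, the seed, pair with target mRNA, so miRNA with the same seed can share targets. The program miRDeep2 scores a hairpin by how its reads stack on the arms and by how stably it folds, and its score rises with the number of reads. miR-2284 and miR-2285 belong to a large family of miRNA known from ruminants.

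The miRNA that carried most of the counts and those with the smallest p-values for diet are shown first, 5′ to 3′ and with the seed in capitals, because the results below turn on them. Coordinates are those of the hairpin on the goat genome CHIR_1.0, whose gene annotation was not used here.
chr26_33637-3p (chr26:31235818-31235875, plus strand): cCAAACCAgttgtgcctgtaga
chr21_29330-5p (chr21:52973042-52973098, minus strand): tAAAGTTCatttgggtttttct
C66881290_38854-5p (contig C66881290, 384 to 440, plus strand): tAAAGTTCatttgggttcttct
chr10_15053-3p (chr10:3916357-3916416, minus strand): aAACACGAacaaacttttcggc
chr16_22478-5p (chr16:21434667-21434727, minus strand): cAGGCTAGgagaaatgattggat
chr10_15091-5p (chr10:10677507-10677569, minus strand): aAAAATTTgttcgggtttttct
chr3_4386-5p (chr3:7413055-7413109, minus strand): aTAGTTCAttcaggtttttctg
chr3_4386-3p (same hairpin): gAAGAATCtgaatgaacattt
chr3_3319-5p (chr3:2632416-2632474, plus strand): gAAAGTTTgtttgggtttttc
chr4_6064-5p (chr4:19474104-19474144, minus strand): cCCGATCTtgtctgatc
chr4_6087-5p (chr4:27926115-27926163, minus strand): tGGGGCCGagggagccagccc

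Among predicted miRNA with 20 counts or more, the scores left a gap around the limit. The lowest scores inside were 12.5 for chr12_17701-3p, 13.5 for chr19_26835-5p and 13.9 for chr18_25407-5p, and the nearest outside were 5.9 for chr11_16141-3p and chr11_16557-3p and 5.8 for chr20_28040-5p. The limit on counts cut through a continuous range, with sums of 20 counts for chr10_14603-5p, chr26_34045-3p, chr18_25407-5p and chr21_28933-3p just inside. Sums of 19 counts stood just outside for chr19_27522-3p, chr19_27168-3p, chr27_34350-5p and scaffold2320_36696-5p.

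**Figure D1:**
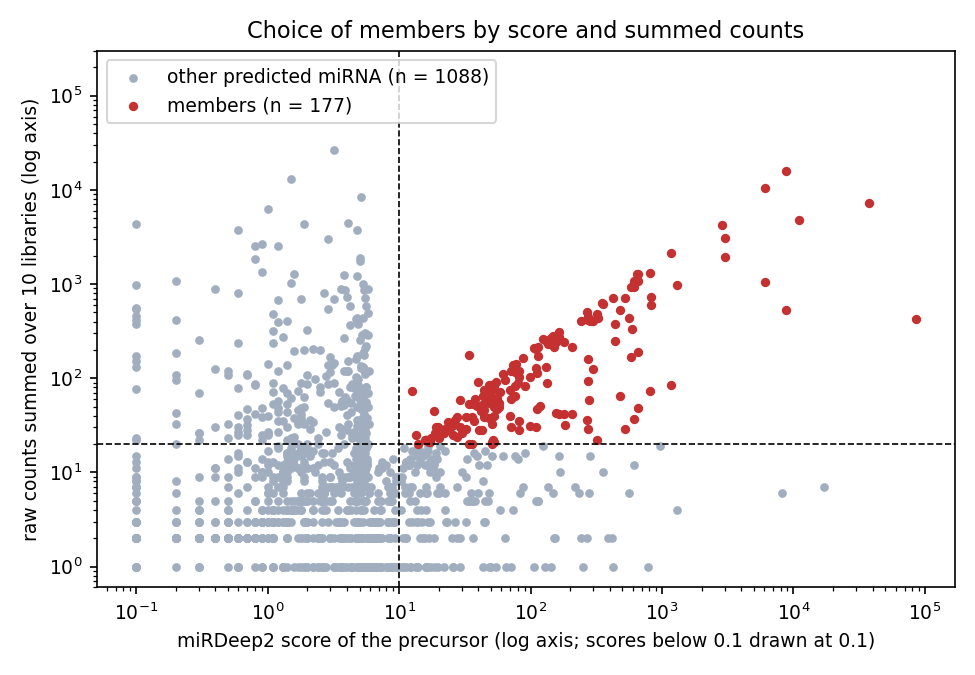
Score of the precursor (horizontal, log axis) against the raw counts summed over 10 libraries (vertical, log axis) for each predicted miRNA. Dashed lines mark the score of 10 and the sum of 20, red points are the 177 miRNA described and grey points the others, and among miRNA above the sum of 20 the scores stop at 5.9 below the limit and start again at 12.5 above it.

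Library totals ran from 4495512 to 9842009 counts. The 177 miRNA took between 0.101% and 0.145% of the counts of a library, less than the 0.173% to 0.266% of the predicted miRNA from lower-scoring hairpins. Between 157 and 175 of the 177 had a count in a given library, and 132 had a count in all 10. Among the marker miRNA checked for the tissue, all 7 of the mammary epithelial list were found, and they summed to between 1449020 and 1771880 normalized counts in Control libraries and to between 799086 and 1624770 in FD libraries. A normalized count is a count divided by the size factor of its library, which sets libraries of different depth on a common scale. The summed ranges of the other lists also overlapped between diets, with 8151 to 12623 normalized counts in Control and 8307 to 18689 in FD libraries for 3 of 5 leukocyte miRNA, and 3694 to 5948 against 5843 to 8621 for 2 of 3 erythroid miRNA. Both endothelial miRNA summed to 117544 to 144955 normalized counts in Control and 136542 to 197735 in FD libraries, 3 of 4 stromal miRNA to 684743 to 922685 against 575051 to 1127180, and 3 of 3 muscle miRNA to 473 to 1125 against 488 to 1329. At an unadjusted p below 0.05 (edgeR), both endothelial miRNA, miR-223-3p and miR-150 of the leukocyte list and miR-451-5p of the erythroid list were higher in FD goats, and miR-200b and miR-429 of the epithelial list were lower, but none passed an adjusted p of 0.1. Within these lists miR-155-5p and miR-205-5p went the other way, at log2 fold changes of -0.12 and 0.41 (adjusted p = 0.781 and 0.486, edgeR). Most of the epithelial sum was miR-148a-3p, with 1220930 to 1527710 normalized counts in Control and 626225 to 1402560 in FD libraries. For miR-126-3p the groups did not overlap, at 13852 to 20391 normalized counts in Control and 20804 to 23988 in FD libraries. Of the muscle list, miR-206 was all but absent, with 0 counts in every Control library and 0 to 1.18 normalized counts in FD libraries. miR-142-3p, miR-142-5p, miR-486-5p and miR-199a-3p were not analysed here. In a whole tissue, fewer cells of a type and less RNA per cell cannot be told apart.

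The counts were spread very unequally. The median of the mean normalized counts was 7.18, with 105 of the 177 under 10 and 14 at 100 or more. The 3 miRNA with most counts held 41.1% of all counts of the 177, the 8 with most counts 61.0%, and the first 20 held 75.8%. In a given library, the share of the first 3 ranged from 27.9% to 51.1%.

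The most abundant was chr26_33637-3p, whose hairpin scored 8802.7. It had 1848, 2078, 2391 and 772 normalized counts in Control libraries L01, L04, L06 and L10, and between 937 and 1905 in FD libraries (median 1438). L10 was the lowest of all libraries, and the range of the FD goats lay within that of the Control goats. The 5p arm of the same hairpin, acaggcacggccagtttgagca, was far rarer, with 76.0, 71.6, 93.8 and 29.8 normalized counts in Control libraries and 26.3 to 64.7 in FD libraries (median 44.0). Again L10 was low among the Control goats, and the groups overlapped. No near-identical sequence to either arm was found among the miRNA with 20 counts or more.

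Several abundant miRNA were the unnamed arm of a hairpin whose other arm had a known name, as was the case for 11 of the 177. chr10_15053-3p lay opposite bta-miR-2284y and scored 37673.6. It had 597, 652, 524 and 681 normalized counts in the Control libraries and 606 to 821 in the FD libraries (median 732), with 5 FD goats above every Control goat and 1 within the Control range. chr16_22478-5p was the 5p partner of ssc-miR-664-3p and scored 11011.8. Its level was nearly even, with 473, 439, 504 and 334 normalized counts in the Control libraries and 382 to 545 in the FD libraries (median 491). The groups overlapped, and L10 was the lowest library.

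The highest score, 85130.9, belonged to the hairpin of bta-miR-6119-5p on the X chromosome, whose other arm was chrX_39871-3p, cAAATCATtttttactctcca. This arm had only 48.4, 59.8, 47.6 and 33.6 normalized counts in Control libraries and 30.4 to 49.4 in FD libraries (median 36.0). The arm thus ranked far lower by its counts than by its score. Likewise, chr5_7621-3p, aTGCGGAAcctgcggatacg, lay opposite ssc-miR-7134-5p, scored 1309.0 and had 53.9, 98.1, 77.0 and 87.4 normalized counts in Control libraries against 74.4 to 117 in FD libraries (median 97.0). For both, the groups overlapped.

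**Figure D2:**
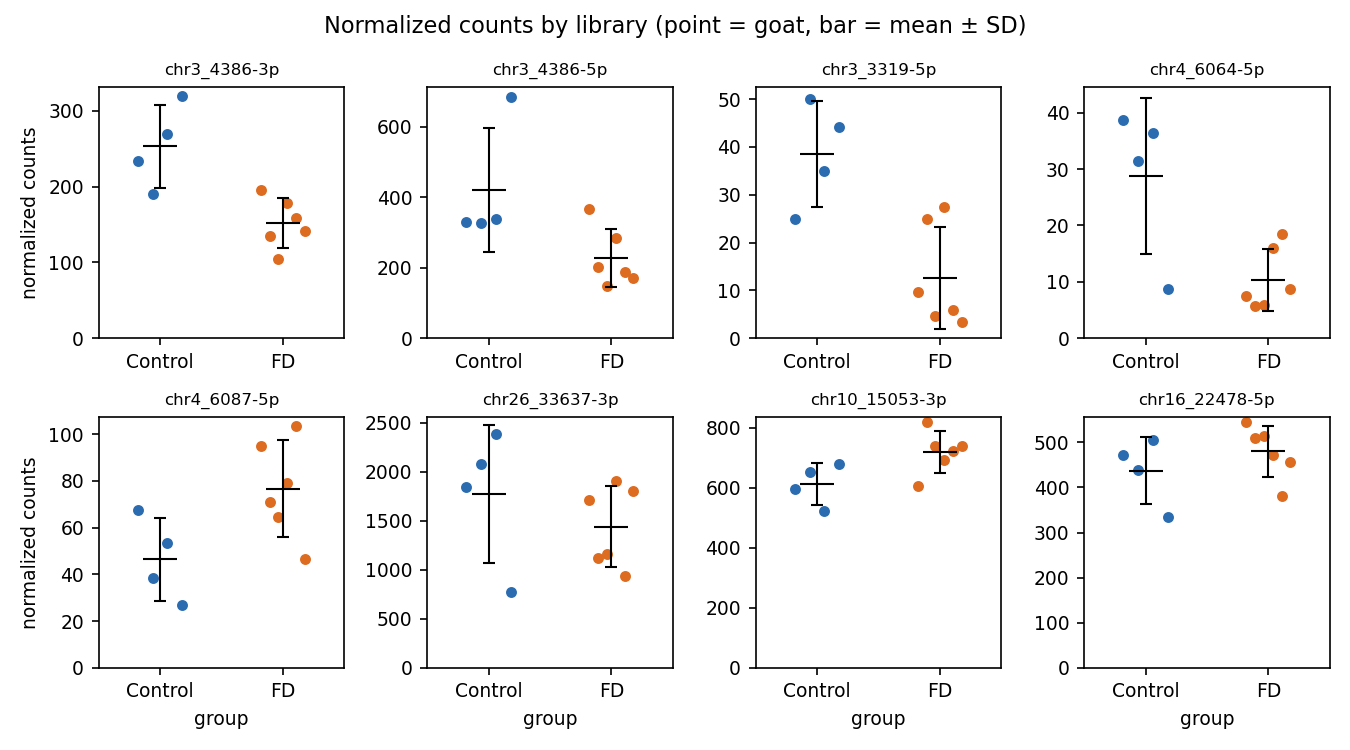
Normalized counts (vertical axis from 0) of 8 predicted miRNA in Control (blue, n = 4) and FD (orange, n = 6) goats, with the mean as a bar and the SD as whiskers. In each panel at least 1 FD goat lies within the Control range, and Control library L10 is the highest point of chr3_4386-5p and the lowest of chr26_33637-3p.

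Where both arms were counted often enough to be chosen, neither arm dominated as a rule. The 5p arm was the higher in 19 of the 40 hairpins and the 3p arm in 21. The higher arm had a median of 3.64 times the mean normalized count of the lower. The range was 1.07 to 28.8 times, with 8 hairpins at 10 times or more. Each arm needed a sum of 20 counts to enter, so hairpins with a scarcer second arm were left out of this range. Among the 21 were chr10_15168, chr13_19309, chr21_28747, chr22_29764 and chr3_4861, and the last 3 were also among the 8. Their 3p arms had near-identical sequences and counts, described below, and may not be separate measurements. The 3p arm of chr21_29330 was also that of hairpin C66881290_38854, described below. At the ends of the range, chr26_33637 favoured its 3p arm, and chr6_9546 and chr10_15091 favoured their 5p arm by 26.1 and 25.6 times. The second arm of chr10_15091, aAAAACCTgagcaaactttttg, had 4.20 to 9.68 normalized counts in Control libraries and 5.25 to 13.9 in FD libraries, while the first had 234, 172, 223 and 223 in Control libraries and 162 to 215 in FD libraries (median 204).

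The sequences of these miRNA had several features in common. Their median length was 22 bases (range 17 to 24), and 162 of 177 (91.5%) were 21 to 23 bases long. This held for 61.1% of the predicted miRNA from lower-scoring hairpins and for 84.5% of known miRNA not named miR-2284 or miR-2285. An A was the first base in 93 (52.5%), a T in 41, a C in 34 and a G in 9. In the same 2 sets for comparison, an A came first in 35.1% and 31.1%. Among the 15 known miRNA named miR-2284 or miR-2285, an A came first in 60% and 73.3% were 21 to 23 bases long. The randfold result, which miRDeep2 weighs in its score and which thus had a part in the choice, was significant for 128 of the 137 hairpins. The hairpins lay on chromosomes in 133 cases and on scaffolds or contigs in 4.

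A recurrent sequence of the miR-2284 and miR-2285 type ran through the set. The letters GTT, any 2 bases, TT, any 2 bases and G, in that order, were searched on the strand of the miRNA only and found in 38 of the 177, each a 5p form. The letters AACTTTT, searched in the same way, were found in 30, each a 3p form. No miRNA held both. Either was thus present in 68 of 177 (38.4%), in 24.5% of the predicted miRNA from lower-scoring hairpins, in 12 of the 15 known miRNA named miR-2284 or miR-2285, in 3 of the 524 other known miRNA and in 11.5% of all 1804. The motifs were written down after sequences of these miRNA had been seen, and a match describes letters only.

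Both motifs often stood on the same hairpin. At least 1 was found on 60 of the 137 hairpins, both on 29, and these 60 hairpins gave 88 of the 177 miRNA. They were spread over 22 chromosomes and contigs. Their share of the counts of the 177 was 51.9% to 58.1% in every library but L10, where it was 68.9%.

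The seeds showed the same kinship. The 177 miRNA had 141 different seeds, of which 12 were shared by 2 or more miRNA, 48 miRNA in all. AAAAGTT was the most common, in 12 miRNA of which chr10_14700-5p had the most counts, and AAAGTTC followed in 8, among them chr21_29330-5p and C66881290_38854-5p. A seed of a known miRNA of the tables was found in 31 of the 177, and for 29 of these it was that of a miR-2284 or miR-2285. The remaining pair were chr4_6087-5p, which shared its seed with miR-128-5p, and chr21_28903-3p, which shared its seed with miR-487a-3p and miR-154a-3p. In each of these pairs only the seed was compared, not the rest of the sequence.

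The second most abundant miRNA and the fifth were nearly one sequence. The hairpins of chr21_29330 and C66881290_38854 were 57 bases long and differed only by T18C, counted from the 5′ end of the hairpin and written from chr21_29330 to C66881290_38854, which falls within the 5p form and outside its seed. They are shown whole, with the base that differs in capitals.
chr21_29330: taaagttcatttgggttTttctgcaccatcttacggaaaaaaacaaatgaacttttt
C66881290_38854: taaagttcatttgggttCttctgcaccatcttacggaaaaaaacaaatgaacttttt

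The counts of the pair were divided between the 2 sequences in 3 distinct ways. In L01, a Control library, C66881290_38854-5p held 1360 of 1362 counts of the pair, or 99.9% (exact 95% Clopper-Pearson interval 99.5% to 99.98%). In Control library L04 and FD libraries L02 and L07 the counts were mixed, with 948 of 1574 (60.2%, interval 57.8% to 62.7%), 962 of 1744 (55.2%, 52.8% to 57.5%) and 987 of 1721 (57.4%, 55.0% to 59.7%). In the other 6 libraries it held 1 to 5 counts, or 0.0896% to 0.330% of the pair, while chr21_29330-5p held 1104 to 1851 counts. These intervals cover counting error only, since copies made in amplification could not be told from separate molecules. The pair was singled out after its values were seen, and no test was made of it.

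The sum of the pair varied much less than its parts. chr21_29330-5p alone ranged from 2.76 to 1777 normalized counts and C66881290_38854-5p from 1.18 to 1880, whereas their sum ranged from 662 to 1883, or 2.84-fold (median 1572). By group, the sum was 1883, 1544, 1745 and 1779 normalized counts in Control libraries L01, L04, L06 and L10 and 662 to 1861 in FD libraries (median 1311), and the groups overlapped. The diet comparison of either form alone had a wide error, with a log2 fold change of -0.05 (SE 0.819, adjusted p = 0.980) for chr21_29330-5p and -1.23 (SE 1.73, adjusted p = 0.713) for C66881290_38854-5p by the quasi-likelihood test of edgeR.

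**Figure D3:**
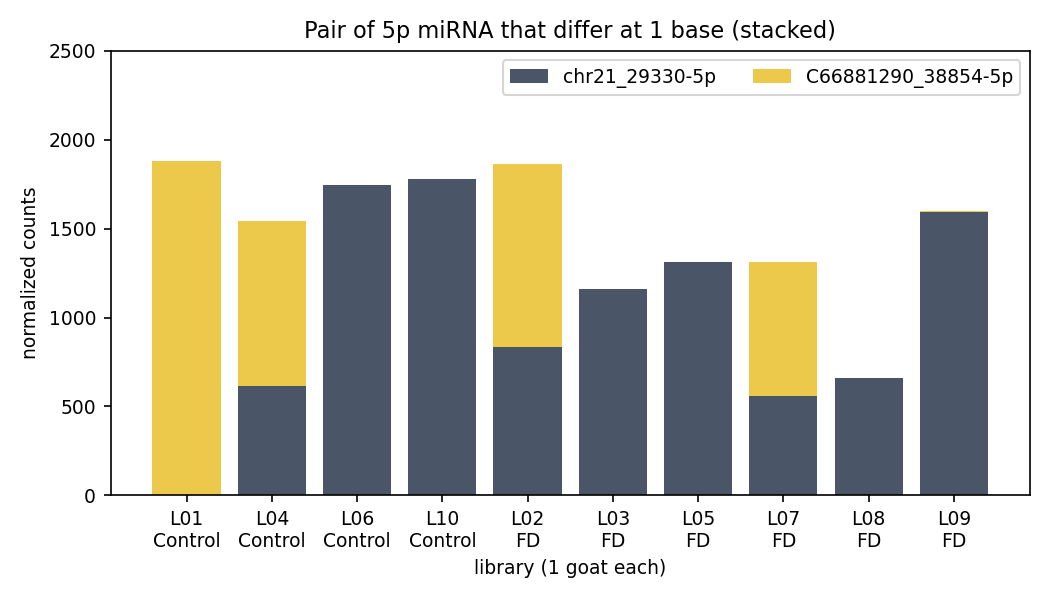
Normalized counts of chr21_29330-5p (dark) and C66881290_38854-5p (yellow), stacked, in each of the 10 libraries. L01 holds almost only the contig form, L04, L02 and L07 hold both, and the other 6 libraries hold almost only the chromosome 21 form.

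The 3p arm is identical in both hairpins, aAAAAAACaaatgaacttttt, and was listed once, as chr21_29330-3p. It had 232, 131, 130 and 55.7 normalized counts in Control libraries L01, L04, L06 and L10 and 23.9 to 202 in FD libraries (median 80.4). A rare miRNA of another hairpin, chr10_15473-5p, followed the contig form across libraries. Its sequence, aTAAGTTCatttgggttcttct, differed from C66881290_38854-5p by T1A and A2T, and it had 24, 20, 19 and 12 counts in L01, L04, L02 and L07 and 0 counts in the other 6 libraries. A miRNA of a lower-scoring hairpin, chr10_14966-5p, likewise followed the chromosome 21 form, which it matched over 20 bases with 0 mismatches. It had 1 count in L01, 28, 53 and 56 in L04, L02 and L07, and 52 to 102 in the other 6 libraries. How a read that matched several hairpins was shared between them is not given in the sources used here.

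Near-identical sequences were common. Sequences were compared only among miRNA with 20 counts or more. With up to 2 mismatches and a shift of up to 1 base, 93 of the 177 had a near-identical sequence elsewhere among these. Some lay near a far more abundant known miRNA. chrX_40049-5p and chrX_40048-5p, with summed counts of 1267 and 252, each differed by 1 mismatch from miR-374a-5p, with 17371. chr10_15091-5p, with 2121, differed by 2 from bta-miR-2284y, with 33491. Whether reads of the known miRNA were counted for them was not tested. Among the 93, some had nearly the same counts too. Linking near-identical miRNA whose counts differed by 5% or less gave 6 groups, which held 21 miRNA, 14 of them among the 177. The largest group held 11 miRNA of the 3p type, 8 of them among the 177, from hairpins on several chromosomes. Each differed by 1 base from the same 22 bases, aAAAACCTgaatgaactttttg, which no miRNA of the table had exactly. The 3 with most counts show how they differ, with positions counted from the 5′ end and the base of the common sequence first.
chr22_29764-3p, C6T: aAAAATCTgaatgaactttttg
chr21_28747-3p, A4C: aAACACCTgaatgaactttttg
chr5_7476-3p, T12C: aAAAACCTgaacgaactttttg

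Their summed counts ran from 406 to 484. In each library the 11 values were close together, with 36 to 41 counts in L01, 17 to 21 in L05 and 64 to 80 in L08. The libraries thus differed more than the 11 miRNA did. A read of the common 22 bases would lie 1 base from each of the 11, and whether the same reads were counted for each was not tested.

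**Figure D4:**
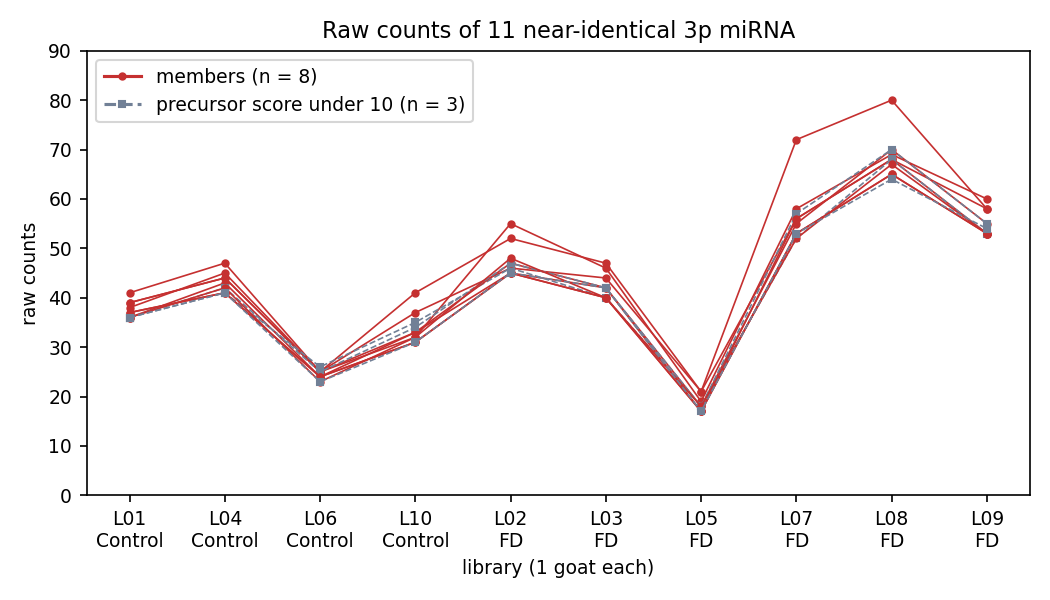
Raw counts (vertical axis from 0) of 11 near-identical 3p miRNA in the 10 libraries, red for the 8 among those described and grey dashed for the 3 from hairpins scoring under 10. The lines lie almost on each other, at 17 to 21 counts in L05 and 64 to 80 in L08.

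The same held for chr3_4386-5p. Another predicted miRNA, chr27_34538-5p, whose hairpin scored 2.9, differed from it by T2A alone. Their counts summed to 3087 and 3036, and in no library did they differ by more than 12 counts. No partner with like counts was found for chr3_4386-3p.

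Predicted hairpins that lay close together were few. Hairpins outside the predicted set were not searched. Within 10000 bases, 25 pairs of predicted hairpins included at least 1 of the 137. In 9 pairs the hairpins overlapped on opposite strands, and 2 of these gave chosen miRNA on both strands, chr6_9546 with chr6_8742 and chr4_6484 with chr4_5791. Of the first, chr6_9546-5p had 89 to 217 counts per library, and chr6_8742-5p, read from the other strand, 3 to 10. Another 3 pairs overlapped on the same strand and 13 lay apart, of which chr21_29372 and chr21_29374, with 491 bases between them, were alone in giving chosen miRNA from both. On chromosome 21, chr21_28933-3p stood 327 bases from the hairpin of bta-miR-541, and it was the other arm of oar-miR-3957-5p. Its hairpin lay 8959 bases from that of oar-miR-668-3p and 8050 from that of oar-miR-323b. The hairpin of chr21_28903-3p, the other arm of oar-miR-539-5p, lay 8685 and 9602 bases from the same hairpins.

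The comparison of the diets asked whether food deprivation altered these miRNA. It was made for miRNA whose highest normalized count was above 28, which 58 of the 177 passed. For 6 of these the count was above 28 in Control libraries alone and for 8 in FD libraries alone. The other 119 were too rare to be compared. None of the 58 passed an adjusted p of 0.1 with edgeR, and neither did any of the 490 miRNA compared (0%). At an unadjusted p below 0.05, 1 of the 58 was higher in FD goats, where 7.55% of the 490 were, and 4 were lower, where 8.16% of the 490 were. By limma-voom, 0 of the 490 passed the adjusted p of 0.1. By DESeq2 4 of the 58 were lower, where 2.86% of the 490 were, and 0 were higher, where 1.84% were. By both edgeR and DESeq2 the 4 lower miRNA were chr3_4386-3p, chr3_4386-5p, chr3_3319-5p and chr4_6064-5p. chr3_4386-3p and chr3_4386-5p are arms of 1 hairpin, and chr3_3319-5p and chr4_6064-5p passed the limit of 28 through Control libraries alone. The share of these 4 therefore cannot show an excess of lowered miRNA. In none of the 58 did the groups stand apart, as they did in 2.24% of the 490, with the FD goats above in 1.22% and below in 1.02%.

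On balance the 58 were centred near no difference. The log2 fold changes of FD over Control had a median of -0.02 and ranged from -1.61 to 0.73, with 24 above 0 and 34 below, while over all 490 the median was 0.00 with 245 on each side. Among the 34 on hairpins with a motif of the miR-2284 and miR-2285 type, the median was -0.02, with 15 above 0 and 19 below. Among the other 24 it was -0.08, with 9 above and 15 below. These counts include near-identical miRNA, which may not be separate measurements.

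The smallest p of the 58 belonged to chr3_4386-3p, and the other arm of its hairpin had the third smallest. chr3_4386-3p had 234, 190, 269 and 320 normalized counts in Control libraries L01, L04, L06 and L10 and 195, 134, 105, 178, 158 and 141 in the FD libraries, listed from L02 through L03, L05, L07 and L08 to L09. All FD goats but L02 lay below every Control goat. The log2 fold change was -0.75 (SE 0.204, adjusted p = 0.195 by the quasi-likelihood test of edgeR), and DESeq2 gave an adjusted p of 0.0565.

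The 5p arm of chr3_4386 had 330, 326, 339 and 684 normalized counts in the Control libraries and 365, 200.5, 149, 285, 188 and 172 in the FD libraries, in the same order. Here too 5 FD goats lay below every Control goat, and L10 stood high among the Control goats. Its log2 fold change was -0.90 (SE 0.291, adjusted p = 0.195 by edgeR and 0.0816 by DESeq2), and without L10 it was -0.61. Both arms come from the same hairpin and the same libraries and are not separate evidence. The summed level of the mammary epithelial miRNA, given above, was also lower in some FD goats than in any Control goat, and several endothelial, leukocyte and erythroid miRNA, also given above, tended the other way at an unadjusted p. The part of these cell types in the differences was not tested.

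chr3_3319-5p, which carries the 5p motif, had 24.9, 50.04, 35.0 and 44.2 normalized counts in Control libraries. In FD libraries it had 9.61, 24.9, 4.71, 27.4, 5.98 and 3.502, so 4 FD goats lay below every Control goat and the other two within the Control range. It reached the limit of 28 in Control libraries alone, so it was compared only because of the group in which it was high. The log2 fold change of -1.61 (SE 0.510) had an adjusted p of 0.195 by edgeR and 0.0816 by DESeq2. It had 4 to 51 counts per library. Its seed AAAGTTT was also that of chr5_8009-5p, chr10_14603-5p and chr15_20714-5p.

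chr4_6064-5p had 38.7, 31.4, 36.4 and 8.64 normalized counts in Control libraries and 7.47, 5.76, 5.88, 15.98, 18.5 and 8.76 in FD libraries. Every Control goat but L10 stood above all FD goats, and L10 lay among the FD goats. This miRNA too passed the limit of 28 through Control libraries alone. The log2 fold change was -1.39 (SE 0.463, adjusted p = 0.195 by edgeR and 0.0816 by DESeq2). At 17 bases it was as short as any miRNA of the 177, and its hairpin scored 34.1. Whether its reads came from another class of RNA, such as ribosomal RNA, was not tested.

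chr4_6087-5p, with the seed of miR-128-5p, had 67.7, 38.3, 53.2 and 26.9 normalized counts in Control libraries and 94.99, 71.0, 64.7, 79.1, 103 and 46.4 in FD libraries. In 4 FD goats the level was above that of every Control goat. The log2 fold change was 0.73 (SE 0.291), with an adjusted p of 0.269 by edgeR and 0.196 by DESeq2. It was the highest log2 fold change of the 58.

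**Figure D5:**
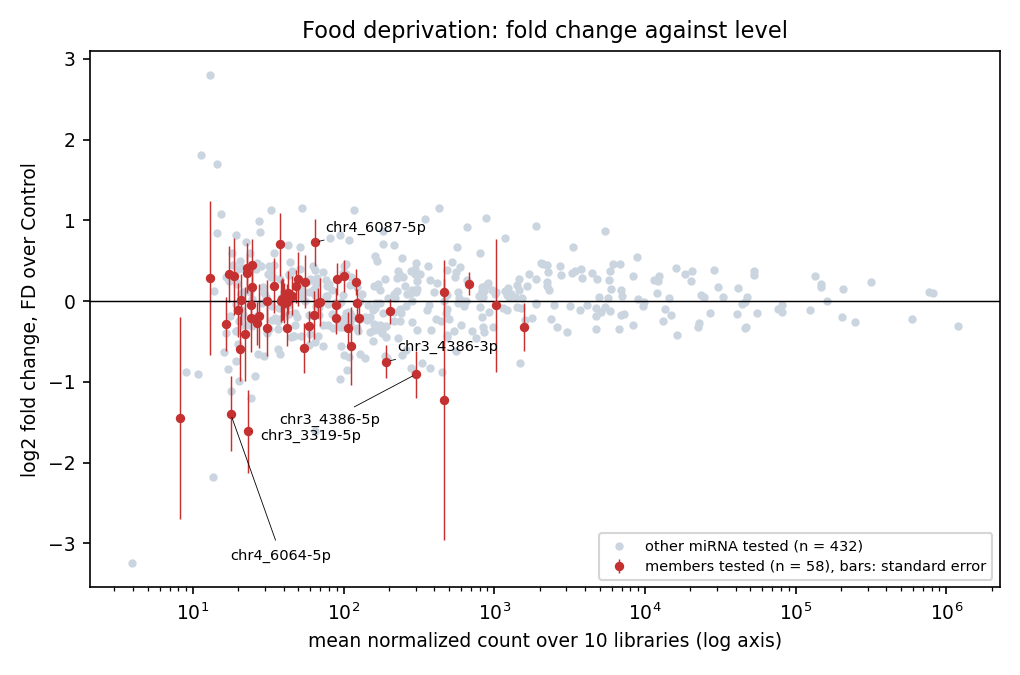
Log2 fold change of FD over Control (vertical) against the mean normalized count over 10 libraries (horizontal, log axis) for the 58 miRNA described (red, bars show the standard error) and the other 432 miRNA tested (grey). The 58 lie between -1.61 and 0.73, at mean levels below those of the most abundant known miRNA.

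The other 3 miRNA among the 8 smallest p-values had an unadjusted p above 0.05. chr26_33637-5p had a log2 fold change of -0.58 (SE 0.312, adjusted p = 0.397, edgeR), with 1 FD goat below every Control goat. chr24_31823-3p, aAAACTTGaatgaactttctgg, had 9.68, 31.4, 26.6 and 41.3 normalized counts in Control libraries and 25.4 to 76.0 in FD libraries (median 42.0), and a log2 fold change of 0.70 (SE 0.388, adjusted p = 0.400, edgeR). chr5_8009-3p, aAAACCTGaacaaacttttggg, had 131, 102, 111 and 139 normalized counts in Control libraries and 69.4 to 131 in FD libraries (median 92.7), and a log2 fold change of -0.34 (SE 0.200, adjusted p = 0.429, edgeR). Its other arm, aAAAGTTTgcttgggttttcc, was too rare for the comparison of diets, with 37 raw counts over all libraries. It had 4.15 to 5.76 normalized counts in Control libraries and 1.18 to 4.38 in FD libraries, which rest on few reads.

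For the most abundant miRNA, no difference between the diets was detected at this number of goats. The log2 fold changes were -0.32 (SE 0.296, adjusted p = 0.579) for chr26_33637-3p, 0.22 (SE 0.138, adjusted p = 0.453) for chr10_15053-3p, 0.11 (SE 0.162, adjusted p = 0.713) for chr16_22478-5p and -0.13 (SE 0.152, adjusted p = 0.650) for chr10_15091-5p, all by edgeR. The remaining named miRNA gave -0.56 (SE 0.483, adjusted p = 0.554) for chr21_29330-3p, 0.27 (SE 0.201, adjusted p = 0.471) for chr5_7621-3p and -0.34 (SE 0.217, adjusted p = 0.457) for chrX_39871-3p.

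The balance between the arms of a hairpin was compared as the log2 ratio of 5p to 3p counts in each library, which does not depend on how libraries are scaled. Of 134 hairpins with at least 10 counts on average in each arm, 14 held a chosen miRNA. No hairpin passed an adjusted p of 0.1 (0%), by two-sided exact permutation of the diets (210 arrangements), and 10 of the 134 (7.46%) and 1 of the 14 had an unadjusted p below 0.05. That 1 was chr10_15053, for which the ratio of bta-miR-2284y to chr10_15053-3p had a mean log2 of 2.40 ± 0.133 (SD, n = 4) in the Control goats against 2.12 ± 0.163 (SD, n = 6) in the FD goats (difference -0.28, exact permutation p = 0.0286, adjusted p = 0.479). For chr3_4386 the mean log2 ratio was 0.68 ± 0.334 (SD, n = 4) in the Control goats against 0.53 ± 0.245 (SD, n = 6) in the FD goats (exact permutation p = 0.448, adjusted p = 0.779).

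Large differences between goats of the same diet marked a few of these miRNA. The lowest library had less than 5% of the normalized count of the highest for 4 of the 58, where this held for 2.86% of the 490. They were chr21_29330-5p, C66881290_38854-5p, chr10_15473-5p and chr8_12264-5p. The last, a 5p form with the seed AAAAGTT, had 13, 17, 1 and 9 counts in the Control libraries and 0, 39, 17, 33, 3 and 1 in the FD libraries. chr21_29330-5p and C66881290_38854-5p are the 1-base pair, and chr10_15473-5p followed the contig form, so these are not separate cases. chr10_15473-5p passed the limit of 28 through Control libraries alone, and chr8_12264-5p through FD libraries alone. The share of these 4 therefore cannot show an excess of such miRNA. Among those too rare to be compared, scaffold12476_37344-5p had 13 counts in L10, 16 in L08 and 0 in the other 8 libraries.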

How the data were processed

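The authors clipped adapters (Cutadapt), selected reads by size, aligned them to CHIR_1.0 and had miRDeep2 quantify each mature miRNA in each library against precursors both known and predicted. Redundant names were then dropped. The deposited counts are raw. The miRDeep2 score values were deposited by the authors for 1070 predicted precursors, computed on the reads of all libraries together. Per the submitters' processing notes, CASAVA 1.8.2 was used. The normalized columns of the tables were not used here. Totals of 4495512 to 9842009 counts leave rare miRNA with few counts, whose counting error adds to the spread between goats.

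No per-library columns other than the counts were used. Counts were divided by DESeq2 size factors for display. The miRNA with a highest normalized count above 28 were compared with edgeR (TMM, glmQLFit and glmQLFTest, two-sided, no covariates, Benjamini-Hochberg over all miRNA compared, threshold 0.1). A standard error is the log2 fold change divided by the square root of F. Arms were compared as log2((5p + 0.5)/(3p + 0.5)) with exact permutation. The scripts were tested on simulated data. Alternatives were DESeq2, limma-voom, other scalings and filters, other arm settings, each library left out, and, chosen after the values were seen, 1 miRNA per near-identical group.

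The members and lists were chosen with earlier results of these data known. The miRNA named were the 8 with the smallest p, the 8 most abundant, those of the 8 highest-scoring hairpins, those of chr3_4386, chr3_3319 and chr4_6064, their other arms, examples of shared seeds and near neighbours, and those at the limits. The 1-base pair, the near-identical groups and miRNA with large differences between goats were picked with their values in view. Versions were R 4.3.3, edgeR 4.0.16, DESeq2 1.42.0, limma 3.58.1, Python 3.11.15, numpy 2.4.6, pandas 2.3.3, scipy 1.17.1 and matplotlib 3.10.9.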

Additional observations from a re-analysis of the deposited data

Results flagged for a closer look

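In 1 of the 38 groups of values examined for the 19 named miRNA, a library stood far from the others of its group, where chance flags about 1 in 20 groups. This was chr3_4386-5p in L10, at 684 normalized counts, where the rest of the Control goats had 326 to 339.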

How the results depend on the processing

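With edgeR the count of miRNA passing an adjusted p of 0.1 was 0 of the 58 compared and 0 of all 490 compared. It was 4 of the 58 and 23 of the 490 with DESeq2. With no filter, which took in every miRNA with a count, it was 1 of the 177 (chr3_3319-5p) and 5 of all. Leaving out 1 library, with the filter applied again, gave 0 of those among the 177 compared and 0 to 1 of all compared, the 1 without FD library L02. At an unadjusted p below 0.05, all miRNA gave 178 with no filter and 46 to 97 with 1 library left out (46 without L01 or L08 and 50 without L06). The 177 gave 3 higher and 9 lower with no filter. Those of them compared gave 2 lower with a highest normalized count above 100. With 1 library left out they gave 0 to 1 higher and 4 to 7 lower. It was 0 higher without L02, L04, L08 or L10 and 7 lower without L10. For all miRNA the directions were not counted apart under these settings. For the balance of the arms 0 hairpins passed under every setting, and 6 to 17 had an unadjusted p below 0.05 with 1 library left out (17 without L01 and 6 without L06). The log2 fold change of chr21_29330-5p turned to 1.67 with limma-voom and 0.015 with library totals, and ranged from -0.47 to 0.34 with 1 library left out (above 0 without L06, L07 or L10). That of chr16_22478-5p ranged from -0.041 (without L10) to 0.21. Leaving out 1 library also moved, by over 1.5 times, C66881290_38854-5p (-0.075 without L01, -2.19 without L02), chr21_29330-3p (-0.20 without L01, -0.95 without L02, -0.86 without L10), chr26_33637-3p (-0.11 without L06, -0.61 without L10), chr26_33637-5p (-0.36 without L06, -0.89 without L10), chr24_31823-3p (0.43 without L01, 0.40 without L08), chr5_7621-3p (0.12 without L01, 0.14 without L08), chrX_39871-3p (-0.22 without L04, -0.53 without L10) and chr10_15091-5p (-0.24 without L04, -0.063 without L05, -0.084 without L06, -0.21 without L08). The cause was not tested. Adjusted p over all settings ranged from 0.0565 to 0.421 for chr3_4386-3p, 0.0816 to 0.421 for chr3_4386-5p, 0.0522 to 0.421 for chr3_3319-5p and 0.0816 to 0.458 for chr4_6064-5p. Of 318 refits of the 17 named miRNA compared, 307 kept direction and side of the threshold. No paired analysis was possible because the libraries of the 2 groups share no animal, batch or litter in the labels. With 4 and 6 goats and few counts, small differences in rare miRNA were not detectable.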
